A study of Homo sapiens with 29 samples.

Results

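The 9 Polycomb repressor genes EZH1, EZH2, EED, SUZ12, BMI1, RING1, CBX2, CBX7 and CBX8 were followed by RNA sequencing in growing fibroblasts, in senescent fibroblasts and in senescent fibroblasts depleted of SMARCA4. They were chosen by name, as components of Polycomb complexes that act against SWI/SNF, and are 9 of the 28266 gene symbols counted. All 9 had enough counts to be tested. Every library was described as IMR90 ER:RAS, an established human lung fibroblast line. The line was infected with a retrovirus carrying a fusion of the estrogen receptor to RASG12V. A library of growing cells with few ESR1 and HRAS reads is described below. By design the fusion is present in all 3 groups. It is switched on by 4-hydroxytamoxifen (4OHT), which drives the cells into oncogene-induced senescence, whereas the solvent DMSO leaves them growing. DMSO_siNT cells received DMSO and a non-targeting siRNA, and 4OHT_siNT cells received 4OHT and a non-targeting siRNA. The 4OHT_siSMARCA4 cells received 4OHT and an siRNA against SMARCA4, an ATPase subunit of SWI/SNF that has the paralog SMARCA2. Cells were collected on day 7. Each group had 6 libraries, 3 for each of the siRNAs numbered 2 and 4. A library is named here by its group, its siRNA number and its set, as in DMSO_siNT 4-2V. The labels do not say that libraries came from separate cultures, so p-values measure only the spread between these samples. No growing cells with SMARCA4 knocked down were analysed.

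Polycomb group proteins keep genes silent through chromatin. Polycomb repressive complex PRC2 trimethylates a lysine on the tail of histone H3 through EZH2 or its homolog EZH1, with SUZ12 as the scaffold and EED as the subunit that reads the finished mark. In canonical PRC1, a CBX protein reads the same mark, and a RING1 or RNF2 ubiquitin ligase paired with a PCGF protein such as BMI1 modifies histone H2A. SWI/SNF remodelers can evict both complexes from chromatin. In fibroblasts the CDKN2A and CDKN2B locus, which encodes cell cycle inhibitors, is a classic Polycomb target, and EZH2 is known as an E2F-driven gene of dividing cells.

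The libraries held 9657309 to 18039313 counts, the fewest in DMSO_siNT (at most 13448183). Expression was expressed as CPM, the count of a gene per 1e+06 counts of its library after TMM scaling, which evens out differences in library composition. The targeted gene, SMARCA4, had 189 to 232 CPM in growing cells, 275 to 330 CPM in senescent cells with the non-targeting siRNA and 70.4 to 141 CPM after the knockdown, with no overlap between groups. Its knockdown in senescent cells came to a log2 fold change of -1.61 ± 0.14 (SE, adjusted p = 1.3e-06 by edgeR's quasi-likelihood test). DMSO_siNT 4-2V stood apart from the other libraries. It had the lowest total, 17915 genes with a count against 15993 to 16888 elsewhere, 29.5 CPM of ESR1 against 1030 to 1320 in the other DMSO_siNT libraries, and 436 CPM of HRAS against 2170 to 2850. ESR1 and HRAS reads include those of the ER:RAS fusion, which all cells should carry. Member results in senescence, and other results that it moved, are therefore given with and without it. The sets were unbalanced: all 6 4OHT_siNT libraries were labelled VM, DMSO_siNT had 3 V and 3 VM, and 4OHT_siSMARCA4 had 3 V, 2 VM and 1 that its name put in set 1VM, although no sample title with its siRNA had that set. This library, called unlabelled, was left out of fits on VM libraries alone. Within 4OHT_siSMARCA4, SMARCA4 was at 92.7, 125 and 141 CPM in the V libraries. It was lower in the VM libraries, at 70.4 and 87.0 CPM, and in the unlabelled library, at 78.8 CPM. What V and VM mean is not stated. With all libraries, a difference of 4OHT_siNT from both other groups cannot be fully told apart from a difference between V and VM sets. The 9 fibroblast markers together made up 1.53e+04 to 3.98e+04 CPM per DMSO_siNT library, 1.98e+04 to 3.14e+04 per 4OHT_siNT library and 1.07e+04 to 1.88e+04 per 4OHT_siSMARCA4 library, and 5 of the 9 were called lower in 4OHT_siNT than in DMSO_siNT, 7 lower after the knockdown and 8 lower in 4OHT_siSMARCA4 than in DMSO_siNT. Markers of other cell types had few counts. The endothelial VWF reached 85 counts and rose in senescence by 1.23 on the log2 scale (adjusted p = 0.00121), PECAM1 reached 14 and CDH5 5. The epithelial EPCAM reached 19 counts, at a mean of 1.32 CPM in DMSO_siNT, 0.352 in 4OHT_siNT and 0.159 in 4OHT_siSMARCA4, while CDH1 reached 2 and SFTPC was at 0. The leukocyte markers CD14, PTPRC and CD3E reached 7, 4 and 1. The part of these markers in the results was not tested. In such bulk RNA, fewer cells that express a gene and less RNA per cell cannot be told apart.

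The plot of CPM by library for the 9 genes shows the main pattern. EZH2 fell to 42.2% of its level in growing cells when the cells became senescent, and to 40.0% with SMARCA4 knocked down as well, while EZH1 did not pass the test in any comparison. CBX2 fell alongside EZH2. SUZ12 fell slightly in senescence and was higher again after the knockdown, whereas BMI1, a gene with few counts, was higher in 4OHT_siNT than in DMSO_siNT. These SUZ12 and BMI1 calls were close to the threshold. Of 18 fits that left out a library, 8 kept the SUZ12 fall, 3 its rise and 7 the BMI1 rise.

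**Figure D1:**
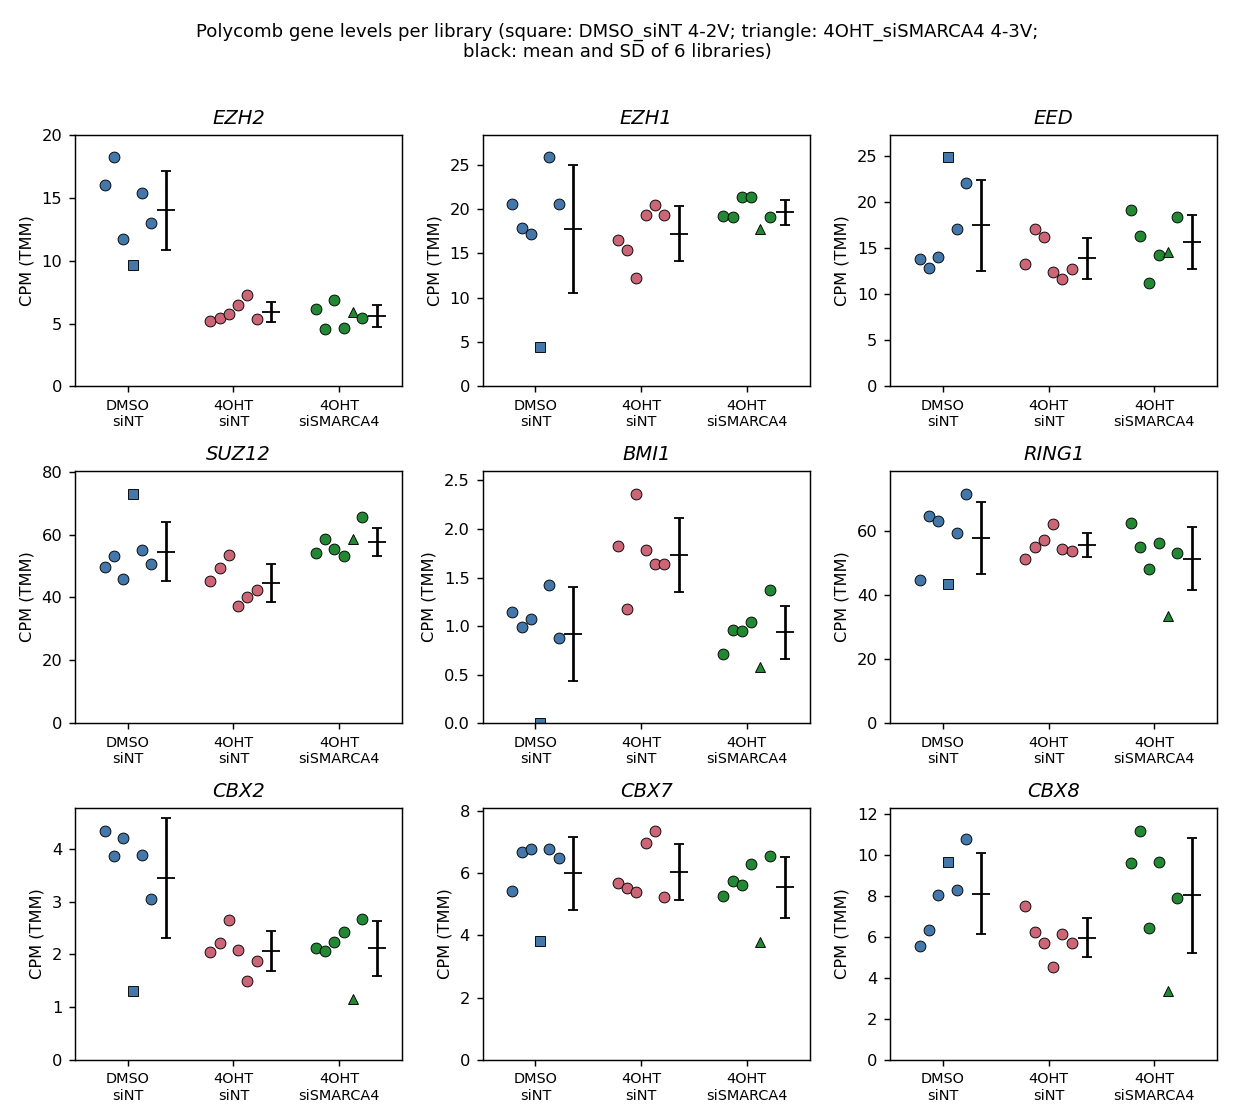
CPM (linear axis from 0) of each of the 9 Polycomb genes in every library, 6 per group, with the mean and SD beside each group. The square is DMSO_siNT 4-2V and the triangle 4OHT_siSMARCA4 4-3V. All EZH2 points of the 2 senescent groups, at 4.54 to 7.23 CPM, lie under all DMSO_siNT points, at 9.68 to 18.2 CPM.

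EZH2 and EZH1 are shown with their promoters because these alternative catalytic subunits gave the largest fall of the 9 genes and no call, respectively. EZH2 lies at chr7:148807257-148884321 and EZH1 at chr17:42700275-42745049, both on the minus strand of GRCh38. The stretches below run from 160 bases before to 20 bases after the RefSeq transcription start (GRCh38.p14). They cover chr7:148884272-148884451 for EZH2 and chr17:42745021-42745200 for EZH1, both read on the minus strand. Capitals mark E2F motif letters (TTTCGCGC, TTTGGCGC or TTTCCCGC) and the CCAAT box, each searched on both strands, so that CCAAT on the other strand reads ATTGG.
EZH2: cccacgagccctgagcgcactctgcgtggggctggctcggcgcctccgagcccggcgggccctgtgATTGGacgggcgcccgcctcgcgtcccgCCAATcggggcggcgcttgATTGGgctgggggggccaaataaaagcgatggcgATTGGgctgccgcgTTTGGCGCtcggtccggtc
EZH1: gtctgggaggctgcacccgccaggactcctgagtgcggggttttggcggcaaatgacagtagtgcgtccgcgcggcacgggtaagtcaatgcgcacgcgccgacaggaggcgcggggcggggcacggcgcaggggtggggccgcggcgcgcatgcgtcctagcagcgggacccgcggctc

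The EZH2 stretch held TTTGGCGC just after the start and 4 CCAAT boxes before it, and the EZH1 stretch held none of these letters. Over the whole windows of 300 bases, E2F letters were found in 2.74% of 35116 RefSeq promoters and at least 1 CCAAT box in 34.6%. At least 4 boxes, a number taken from EZH2 itself, were found in 0.991%. The letters TTTGAA, known as the cell cycle homology region, were also searched on both strands and found in 15.2%. A second EZH2 window, for a start further downstream, held neither motif. Of the other members, SUZ12 had TTTCCCGC, 1 CCAAT box and 1 match to TTTGAA, EED and CBX7 had 1 CCAAT box each, and BMI1 and RING1 had none of the motifs. TTTGAA was in no window of EZH2. Promoters were matched for 7 of the 9 genes, not for CBX2 and CBX8. Of 26 proliferation genes used for comparison, 22 had a window, of which 8 had E2F letters, 17 a CCAAT box and 8 TTTGAA in at least 1 window. These matches describe the sequence and do not show binding.

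The first comparison, 4OHT_siNT over DMSO_siNT, addressed how Polycomb genes change as fibroblasts enter senescence. Of the 9 genes, 4 (44.4%) passed an adjusted p under 0.05, 3 lower and 1 higher. Across all 13136 genes tested the share was 52.8%, which is near the share among the members. Their median log2 fold change was -0.29, against -0.05 over all genes. The plot of fold changes sets the 9 genes side by side in the 3 comparisons.

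**Figure D2:**
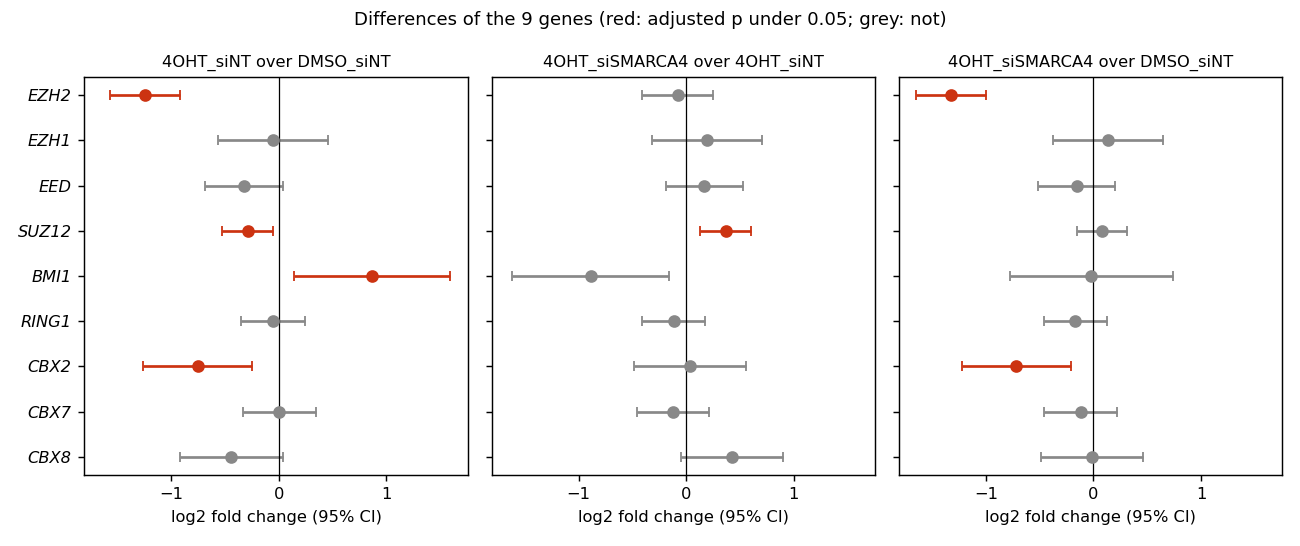
Log2 fold changes of the 9 genes with 95% confidence intervals in the 3 comparisons (edgeR, all 18 libraries in 1 fit). Red marks an adjusted p under 0.05 and grey the rest. EZH2 is near -1.24 in the left panel, near -0.08 in the middle and near -1.32 on the right.

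EZH2, the methyltransferase of PRC2, had a lowest, median and highest level of 9.68, 14.2 and 18.2 CPM in DMSO_siNT, 5.17, 5.62 and 7.23 in 4OHT_siNT and 4.54, 5.68 and 6.84 in 4OHT_siSMARCA4. Every senescent library lay below every growing library. The fall in 4OHT_siNT was -1.24 ± 0.16 on the log2 scale (95% interval -1.57 to -0.92, adjusted p = 1.53e-06), to 42.2% of the DMSO_siNT level. The library that stood apart was the lowest of its group for EZH2, and without it the log2 fold change was -1.32 (adjusted p = 7.32e-08). Among VM libraries alone it was -1.17 (adjusted p = 5.59e-06). EZH2 was called in all 18 fits that left out a library and in all 16 other alternatives. Of all genes tested 10% had a lower fold change than EZH2.

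EZH1, the homolog with weaker methyltransferase activity, was at 4.42, 19.2 and 25.8 CPM (lowest, median, highest) in DMSO_siNT, 12.2, 17.9 and 20.4 in 4OHT_siNT and 17.7, 19.2 and 21.3 in 4OHT_siSMARCA4. The single low value was that of DMSO_siNT 4-2V, and the groups overlapped. EZH1 did not pass the test in senescence (log2 fold change -0.05, interval -0.57 to 0.46, adjusted p = 0.866). Without DMSO_siNT 4-2V it was -0.24 (adjusted p = 0.107).

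SUZ12, the PRC2 scaffold, was at 46.0, 52.0 and 72.9 CPM in DMSO_siNT, 37.4, 43.8 and 53.4 in 4OHT_siNT and 53.2, 57.1 and 65.7 in 4OHT_siSMARCA4. The highest growing library was DMSO_siNT 4-2V, and 4 of the 6 4OHT_siNT libraries lay below all DMSO_siNT libraries. The fall in senescence was small (-0.29 ± 0.11, interval -0.53 to -0.05, adjusted p = 0.0382), to 81.8% of the DMSO_siNT level. Without DMSO_siNT 4-2V the log2 fold change was -0.19 and the call was lost (adjusted p = 0.0816). The call was lost in other fits too. The adjusted p was under 0.05 in 8 of 18 fits that left out a library, between 0.0209 and 0.103 over these 18. It was under 0.05 in 8 of 16 other alternatives, and the stricter threshold of 0.01 was missed. SUZ12 has a pseudogene copy, SUZ12P1, which fell by 0.52 on the log2 scale (adjusted p = 0.0334, or 0.0989 at -0.33 without DMSO_siNT 4-2V), and how reads were shared between them is not given in the sources used here.

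EED, the subunit that binds the trimethyl mark, was at 12.9, 15.6 and 24.9 CPM in DMSO_siNT, 11.7, 13.0 and 17.1 in 4OHT_siNT and 11.2, 15.5 and 19.2 in 4OHT_siSMARCA4. The ranges overlapped in all pairs of groups. Its log2 fold change in senescence was -0.33 (interval -0.69 to 0.03, adjusted p = 0.12), and -0.20 without DMSO_siNT 4-2V (adjusted p = 0.284).

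On the PRC1 side, CBX2 encodes a chromodomain reader known for compacting chromatin. It was at 1.31, 3.87 and 4.35 CPM in DMSO_siNT, 1.5, 2.06 and 2.66 in 4OHT_siNT and 1.15, 2.19 and 2.67 in 4OHT_siSMARCA4, from 11 to 61 counts per library. Only DMSO_siNT 4-2V, at 1.31 CPM, made the growing and senescent ranges overlap. CBX2 fell by 0.75 ± 0.24 on the log2 scale in 4OHT_siNT (interval -1.26 to -0.25, adjusted p = 0.0136), to 59.3% of the DMSO_siNT level. Without DMSO_siNT 4-2V the value was -0.90 (adjusted p = 0.000392), and among VM libraries it was -0.85 (adjusted p = 0.00346). Its adjusted p was under 0.05 in all 18 fits that left out a library and in 12 of 16 other alternatives. It exceeded 0.05, up to 0.13, with the set as a block, with each siRNA alone and with lane 2 alone. At the stricter threshold of 0.01 the CBX2 call was lost too.

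BMI1, also named PCGF4, is the partner that activates the RING1 ligases. It had 0 to 32 counts per library, at 0, 1.03 and 1.42 CPM in DMSO_siNT, 1.18, 1.71 and 2.36 in 4OHT_siNT and 0.577, 0.955 and 1.37 in 4OHT_siSMARCA4. The value of 0 was that of DMSO_siNT 4-2V, where 3 counts would have been 0.359 CPM. In senescence 5 of 6 libraries lay above all growing libraries, and BMI1 rose by 0.87 ± 0.35 on the log2 scale (interval 0.14 to 1.60, adjusted p = 0.0434). Without DMSO_siNT 4-2V the rise was 0.66 (adjusted p = 0.0198), and among VM libraries the value was 0.63 (adjusted p = 0.0742). The call was kept in 7 of 18 fits that left out a library. BMI1 shares 22.8% of its exon bases with the readthrough gene COMMD3-BMI1, which was listed at 0 in every library.

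RING1, a ubiquitin ligase of PRC1, was at 43.4, 61.1 and 71.4 CPM in DMSO_siNT, 51.3, 54.6 and 62.0 in 4OHT_siNT and 33.4, 53.9 and 62.4 in 4OHT_siSMARCA4. CBX7, a reader known for silencing CDKN2A in fibroblasts, was at 3.82, 6.57 and 6.79 CPM, then 5.23, 5.61 and 7.37, then 3.79, 5.67 and 6.54 in the same order of groups. Both genes had overlapping ranges in all comparisons, and the lowest values were those of DMSO_siNT 4-2V and 4OHT_siSMARCA4 4-3V. Neither passed the test in senescence, with intervals of -0.35 to 0.24 for RING1 and -0.34 to 0.34 for CBX7 on the log2 scale (adjusted p = 0.764 and 0.99). Without DMSO_siNT 4-2V they were at -0.12 and -0.08 (adjusted p = 0.449 and 0.637).

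CBX8, a reader encoded next to CBX2 on chromosome 17, was at 5.56, 8.17 and 10.8 CPM in DMSO_siNT, 4.53, 5.92 and 7.50 in 4OHT_siNT and 3.38, 8.76 and 11.2 in 4OHT_siSMARCA4. The 3 ranges overlapped. The senescence value of -0.44 ± 0.23 was not called (interval -0.92 to 0.04, adjusted p = 0.111). It was -0.38 without DMSO_siNT 4-2V (adjusted p = 0.156). Among VM libraries alone CBX8 was called, at -0.60 (adjusted p = 0.00555).

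Levels of different genes were compared only after division by the length of their exons in kilobases (kb), with BMI1 left out because of its overlap with COMMD3-BMI1. CBX7 was kept, although it shares 17.9% of its exon bases with a noncoding RNA on the opposite strand and 3.67% with the pseudogene COX5BP7, and the use of strand in counting is not given. In DMSO_siNT RING1 had the highest level, at 31.8 ± 6.27 CPM per kb (SD, n = 6), followed by SUZ12 at 8.33 ± 1.45. EZH1 (2.54 ± 1.03), EED (2.50 ± 0.703) and CBX8 (1.97 ± 0.476) did not differ beyond their spread. EZH2 was at 1.30 ± 0.289, CBX7 at 0.803 ± 0.159 and CBX2 at 0.608 ± 0.200, and CBX7 and CBX2 had overlapping ranges. In 4OHT_siNT EZH2 was at 0.549 ± 0.0726 CPM per kb, below CBX7 at 0.808 ± 0.121, and in 4OHT_siSMARCA4 at 0.520 ± 0.0833 against 0.743 ± 0.131. Below SUZ12 the order depended on the length used. With the longest transcript in place of all exons, DMSO_siNT had EED at 6.33, EZH1 at 3.83, EZH2 at 3.11 and CBX8 at 2.16 CPM per kb. EZH2 and CBX7 were then within their spread in senescence, at 1.31 ± 0.174 and 1.47 ± 0.219 CPM per kb in 4OHT_siNT and 1.24 ± 0.199 and 1.35 ± 0.237 in 4OHT_siSMARCA4.

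**Figure D3:**
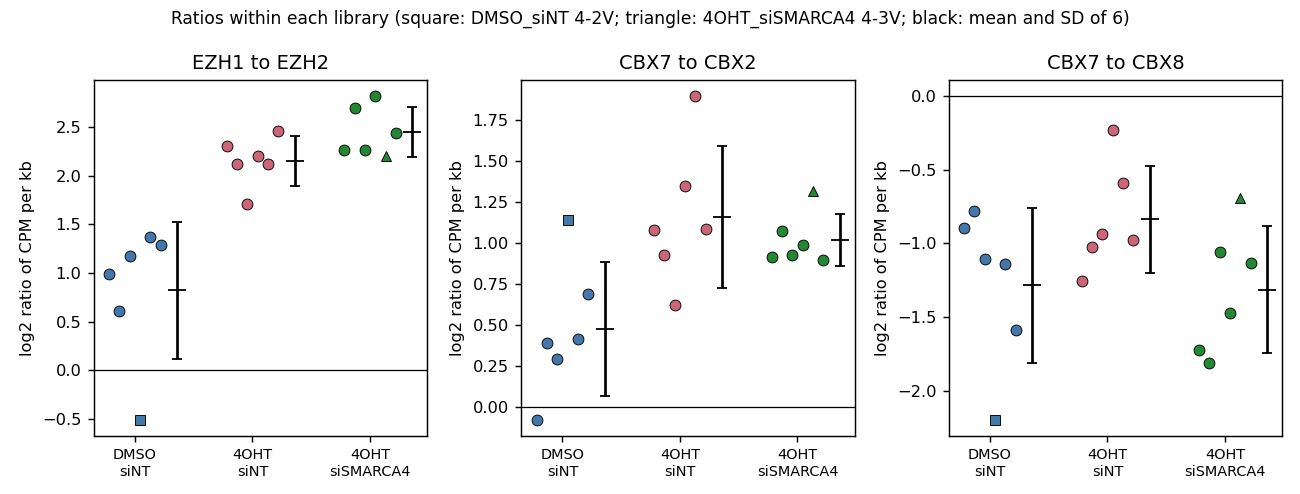
Log2 ratios of CPM per kb within each library for EZH1 to EZH2, CBX7 to CBX2 and CBX7 to CBX8, 6 libraries per group with the mean and SD. The square is DMSO_siNT 4-2V and the triangle 4OHT_siSMARCA4 4-3V. All EZH1 to EZH2 ratios in the senescent groups (3.26 to 7.05 as folds) lie above all those in DMSO_siNT (0.704 to 2.59).

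The balance between the PRC2 enzymes shifted with EZH2. As the fold of the mean log2 ratio, EZH1 to EZH2 per kb was 1.77 in DMSO_siNT, 4.45 in 4OHT_siNT and 5.46 in 4OHT_siSMARCA4. It was 2.12 in DMSO_siNT without the library that stood apart. These are values of the same libraries and carry no test of their own. The size of the ratio depends on the lengths, and with the longest transcripts it was 1.11, 2.80 and 3.44. In the same way the ratio of CBX7 to CBX2 was 1.39, 2.24 and 2.03, with overlapping ranges, and that of CBX7 to CBX8 0.410, 0.560 and 0.402. Without DMSO_siNT 4-2V the CBX7 to CBX2 ratio in DMSO_siNT was 1.27, at most 1.61. That range still overlapped 4OHT_siNT, from 1.54, but not 4OHT_siSMARCA4, from 1.86.

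The second comparison, 4OHT_siSMARCA4 over 4OHT_siNT, asked whether knockdown of SMARCA4 alters the expression of the opponents of SWI/SNF in senescent cells. Of the 9 genes 1 (11.1%) was called, higher, against 10.6% of all genes tested. That gene was SUZ12, with the levels given above: 5 of 6 knockdown libraries lay above all 4OHT_siNT libraries, and 1 lay within their range. SUZ12 rose by 0.37 ± 0.11 on the log2 scale (interval 0.13 to 0.61, adjusted p = 0.042), or 1.29-fold. The value was close to the threshold. Leaving out each library gave 0.32 to 0.42 and kept the call in 3 of 18 fits, with adjusted p between 0.00451 and 0.116. Without DMSO_siNT 4-2V, which enters through the shared estimate of spread, SUZ12 was at 0.36 (adjusted p = 0.00451), and 24.6% of all genes were then called. Among VM libraries, with 2 knockdown libraries, it was 0.31 (adjusted p = 0.0953). SUZ12P1 was at 0.03 in this comparison (adjusted p = 0.952).

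BMI1 was lower in 5 of 6 knockdown libraries than in any 4OHT_siNT library, but was not called (-0.89 ± 0.35, interval -1.62 to -0.16, adjusted p = 0.115). Without DMSO_siNT 4-2V it was called, at -0.90 (adjusted p = 0.0069). CBX8 had 4 of 6 knockdown libraries above all 4OHT_siNT libraries and 1, 4OHT_siSMARCA4 4-3V, below all of them. Its value of 0.43 ± 0.23 was not called (interval -0.05 to 0.90, adjusted p = 0.256). Among VM libraries, with 2 knockdown libraries, it was called at 0.79 (adjusted p = 0.00708). Leaving out both DMSO_siNT 4-2V and 4OHT_siSMARCA4 4-3V gave a call for CBX8 at 0.57 (adjusted p = 0.0237), for BMI1 at -0.80 (adjusted p = 0.0143) and for SUZ12 at 0.35 (adjusted p = 0.00743).

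EZH2 did not pass the test after the knockdown (-0.08 ± 0.16, interval -0.41 to 0.25, adjusted p = 0.813), and the 2 groups overlapped. The adjusted p-values were 0.688 for EZH1, 0.593 for EED, 0.668 for RING1, 0.947 for CBX2 and 0.702 for CBX7. None of these 6 genes was called in any of the 18 fits that left out a library.

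The siRNAs numbered 2 and 4 were also compared, in a fit with 6 levels of treatment by siRNA. The knockdown effect of siRNA 2 minus that of siRNA 4 was not called for any of the 9 genes by edgeR, none had an unadjusted p under 0.05, and DESeq2 also called none. Over all 13659 genes of that fit 2 were called (0.0146%). The lowest p among the members was 0.205, for RING1 (adjusted p = 0.878), at 0.06 with siRNA 2 and -0.32 with siRNA 4. With 3 libraries a level, differences under the spread between libraries were not detectable. Each effect sets the SMARCA4 siRNA against the non-targeting siRNA of the same number, so differences between the control siRNAs enter it. For SUZ12 the knockdown effect was 0.27 with siRNA 2 and 0.47 with siRNA 4 on the log2 scale. Its mean was 59.5 and 55.8 CPM with siRNAs 2 and 4 in 4OHT_siSMARCA4, and 49.3 and 39.9 CPM in 4OHT_siNT.

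The non-targeting siRNAs were set against each other in the same fit, in tests chosen after seeing the data. None of the 9 genes was called by edgeR between siRNA 2 and siRNA 4 in 4OHT_siNT or in DMSO_siNT. Of all genes 0.0732% and 0.0512% were called. EED and SUZ12 had an unadjusted p under 0.05 in 4OHT_siNT, as did 1447 of all 13659 genes. In DMSO_siNT EED did, as did 3872 of all 13659 genes. EED, the reader subunit of PRC2, was at 12.9 to 14.1 CPM with siRNA 2 and 17.1 to 24.9 with siRNA 4 in DMSO_siNT, and at 13.3 to 17.1 with siRNA 2 and 11.7 to 12.8 with siRNA 4 in 4OHT_siNT. The siRNAs did not overlap within either group, and their order was opposite in the 2 groups. With so few libraries per siRNA such a separation can readily arise by chance. The share of all genes that showed it was not counted. With siRNA 4 alone EED was called lower in senescence (-0.78 on the log2 scale, adjusted p = 0.00065), and with siRNA 2 alone it was at 0.20. The difference between the siRNAs in the effect of 4OHT was 0.98 ± 0.22 for EED, which missed the threshold (adjusted p = 0.0952, or 0.0516 at 0.87 without DMSO_siNT 4-2V), and 0.57 ± 0.19 for SUZ12 (adjusted p = 0.116). No gene at all was called in that test by edgeR, where 3258 of 13659 had an unadjusted p under 0.05.

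The third comparison, 4OHT_siSMARCA4 over DMSO_siNT, uses libraries of both others and is no independent evidence. Of the 9 genes 2 (22.2%) were called, both lower, against 50.5% of all genes. EZH2 fell by 1.32 ± 0.16 on the log2 scale (interval -1.65 to -1.0, adjusted p = 6.52e-07), to 40.0% of the DMSO_siNT level, and by 1.40 without DMSO_siNT 4-2V (adjusted p = 2.8e-08). CBX2 fell by 0.72 ± 0.24 (interval -1.23 to -0.21, adjusted p = 0.0189), and by 0.87 without that library (adjusted p = 0.000537). The adjusted p of CBX2 was under 0.05 in 14 of 18 other alternatives, but it missed the stricter threshold of 0.01. SUZ12 was at 0.08 (adjusted p = 0.582) and BMI1 at -0.02 (adjusted p = 0.971). The other 5 genes lay between -0.17 for RING1 and 0.14 for EZH1 and were not called.

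**Figure D4:**
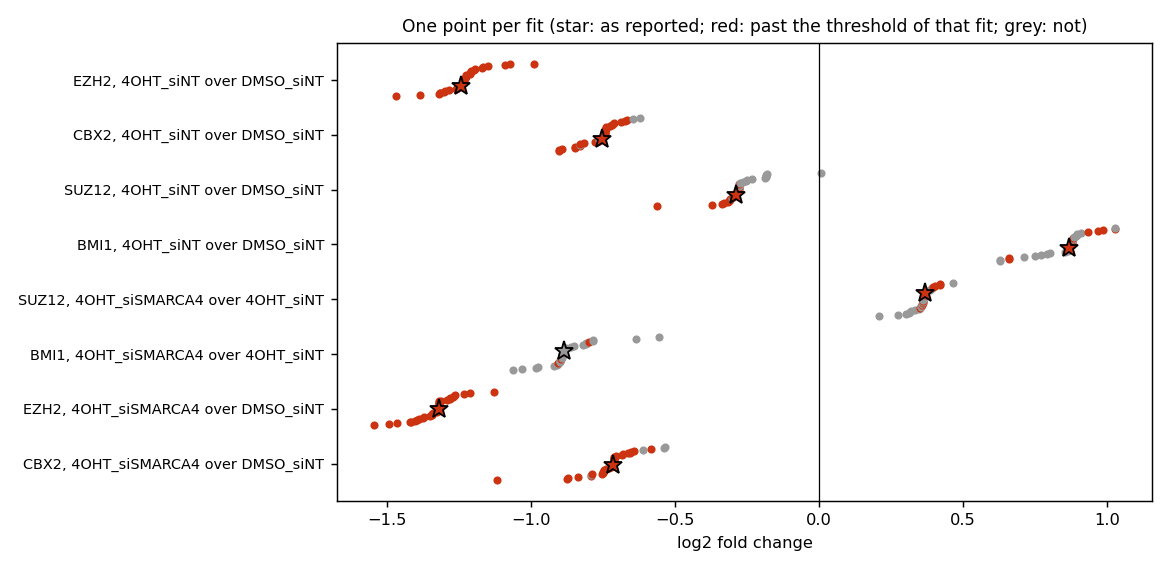
Log2 fold changes of 8 member results under every fit made (1 point a fit, the star being the reported value, red where the fit called the gene and grey where it did not). EZH2 is red throughout, from -1.47 to -0.99 for 4OHT_siNT and from -1.55 to -1.13 for 4OHT_siSMARCA4 over DMSO_siNT, whereas SUZ12 and BMI1 hold both colours.

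The other genes of the Polycomb system were read from 4 lists of 40 genes, of which 37 were tested. In senescence 12 of them rose and 7 fell, 51.4% in all against 52.8% of all genes. After the knockdown 1 rose and 2 fell (8.11% against 10.6%). Without DMSO_siNT 4-2V, 38 were tested, 15 rose and 10 fell in senescence, and 5 rose and 3 fell after the knockdown, when 58.3% and 24.6% of all genes were called. The plot of the 37 genes gives each value.

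**Figure D5:**
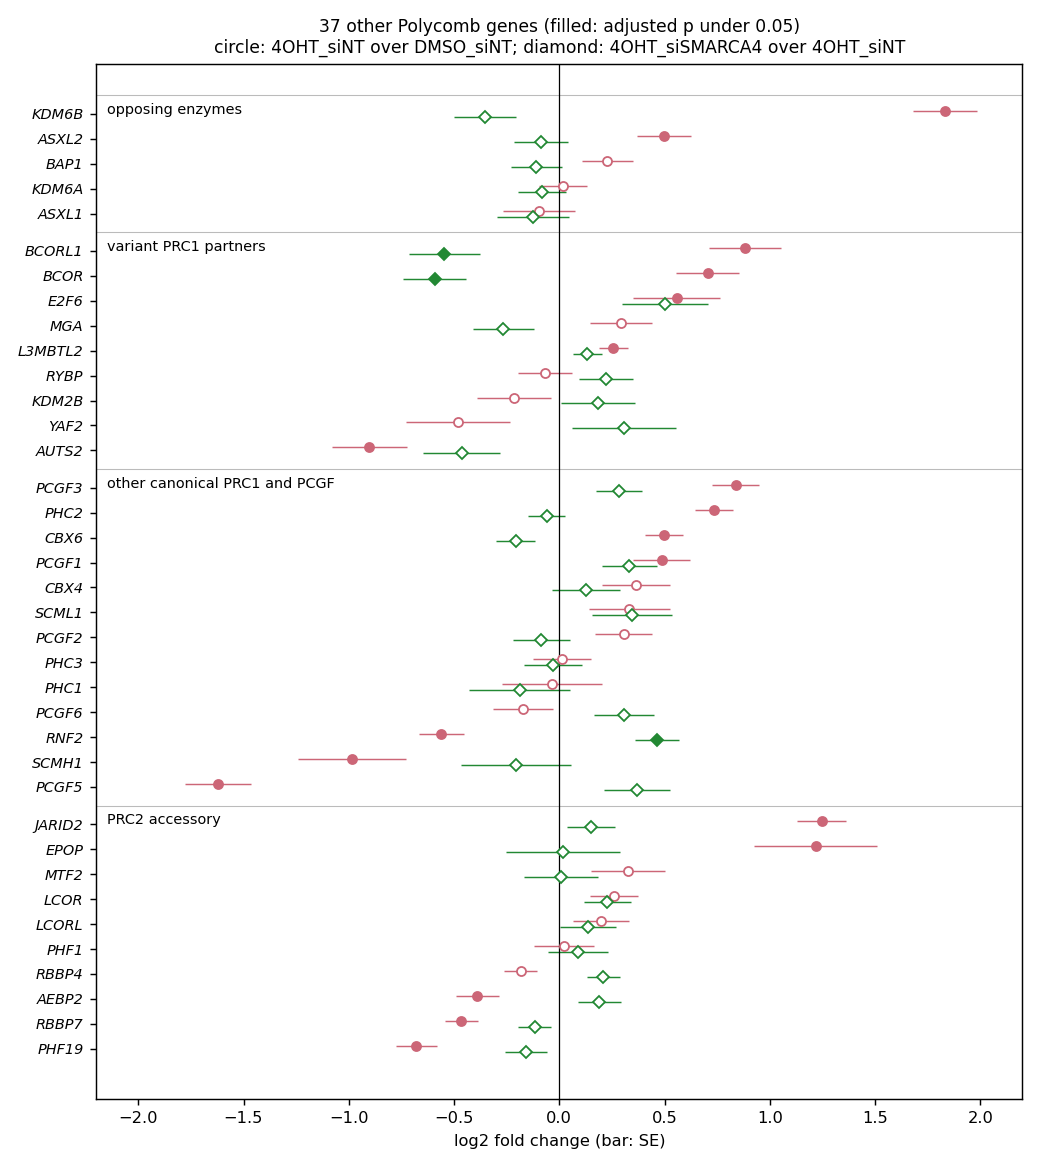
Log2 fold changes with SE of 37 other Polycomb genes in 4 lists, as circles for 4OHT_siNT over DMSO_siNT and diamonds for 4OHT_siSMARCA4 over 4OHT_siNT, filled where the adjusted p is under 0.05. KDM6B at 1.83 and PCGF5 at -1.62 mark the ends of the senescence values, and RNF2, BCOR and BCORL1 are the 3 filled diamonds.

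Among the PRC2 accessory subunits 10 were tested, of which 2 rose and 3 fell in senescence. JARID2, which recruits PRC2, was at 8.88, 12.3 and 14.0 CPM (lowest, median, highest) in DMSO_siNT and 24.8, 28.0 and 30 in 4OHT_siNT. The groups did not overlap, and JARID2 rose by 1.25 ± 0.12 on the log2 scale (adjusted p = 3.39e-08) while EZH2 fell. EPOP, which links PRC2 to elongin, rose by 1.22 ± 0.29 (adjusted p = 0.00169), with 11 to 88 counts per library. PHF19, a Tudor-domain partner of PRC2, fell by 0.68 ± 0.10 (adjusted p = 1.17e-05). Without DMSO_siNT 4-2V these values were 1.25, 1.27 and -0.66. After the knockdown none of the 10 was called with all libraries by edgeR, and RBBP4, a histone-binding subunit, was called higher without DMSO_siNT 4-2V, at 0.20 (adjusted p = 0.0338).

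Of 13 other PRC1 genes tested, 4 rose and 3 fell in senescence. PCGF3 rose by 0.84 ± 0.11 (adjusted p = 3.02e-06), whereas PCGF5, its close relative in variant PRC1, fell by 1.62 ± 0.16 (adjusted p = 6.2e-08). Without DMSO_siNT 4-2V they were at 0.76 and -1.66. SCMH1, a sterile-alpha-motif protein of PRC1, fell by 0.98 ± 0.26 (adjusted p = 0.00337), or by 1.18 without DMSO_siNT 4-2V. RNF2, the paralog of RING1 and the main ligase of PRC1, was at 17.1, 20.1 and 25.7 CPM in DMSO_siNT, 12.5, 13.7 and 14.7 in 4OHT_siNT and 16.0, 19.3 and 20.7 in 4OHT_siSMARCA4. All 4OHT_siNT libraries lay below all libraries of the other groups. RNF2 fell by 0.56 ± 0.11 in senescence (adjusted p = 0.000173) and rose by 0.46 ± 0.11 after the knockdown (adjusted p = 0.00733). Without DMSO_siNT 4-2V these values were -0.48 and 0.45 (adjusted p = 0.000168 and 0.00113). With all libraries RNF2 was the 1 gene of the 4 lists that rose after the knockdown, whereas without DMSO_siNT 4-2V PCGF1, PCGF3, E2F6 and RBBP4 were called higher too.

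In the list of variant PRC1 partners 9 were tested, of which 4 rose and 1 fell in senescence. BCOR and BCORL1, corepressors that assemble with PCGF1, rose and were lower again with the knockdown. BCOR was at 11.2, 15.3 and 20.1 CPM in DMSO_siNT, 21.3, 25.3 and 27.6 in 4OHT_siNT and 12.2, 15.8 and 23.4 in 4OHT_siSMARCA4. Its log2 fold changes were 0.70 ± 0.15 in senescence (adjusted p = 0.000597) and -0.59 ± 0.15 after the knockdown (adjusted p = 0.0146). For BCORL1 they were 0.88 ± 0.17 (adjusted p = 0.000243) and -0.55 ± 0.17 (adjusted p = 0.0434). Without DMSO_siNT 4-2V BCOR was at 0.80 and -0.60 and BCORL1 at 0.85 and -0.55, all called. AUTS2, a partner of PCGF3 and PCGF5, fell by 0.90 ± 0.18 in senescence (adjusted p = 0.000285), and by 0.86 without that library.

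Of 5 enzymes tested that remove Polycomb marks or assist in it, 2 rose and none fell by edgeR in senescence. KDM6B, a demethylase of the mark laid by EZH2, was at 13.5, 23.2 and 25.8 CPM in DMSO_siNT and 67.5, 76.9 and 92.9 in 4OHT_siNT, without overlap. It rose by 1.83 ± 0.15 on the log2 scale (adjusted p = 6.48e-09). After the knockdown it was at 50.8, 57.7 and 85.9 CPM and was not called (-0.35 ± 0.15, adjusted p = 0.135). Without DMSO_siNT 4-2V these values were 1.89 and -0.36, the latter not called (adjusted p = 0.0536).

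In 4OHT_siSMARCA4 over DMSO_siNT 14 of the 37 genes rose and 5 fell, and without DMSO_siNT 4-2V 15 of 38 rose and 7 fell. The largest called values were those of KDM6B (1.48), JARID2 (1.40), EPOP (1.24), PCGF3 (1.12) and E2F6 (1.06) among the rises. Among the falls they were those of AUTS2 (-1.37), PCGF5 (-1.25), SCMH1 (-1.19), PHF19 (-0.84) and RBBP7 (-0.58).

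The INK4 locus was read as the textbook target of these complexes. CDKN2A was at 44.8, 50.7 and 101 CPM in DMSO_siNT, 109, 131 and 140 in 4OHT_siNT and 64.2, 85.1 and 93.9 in 4OHT_siSMARCA4. It rose by 1.02 ± 0.18 in senescence (adjusted p = 9.28e-05) and fell by 0.64 ± 0.18 with the knockdown (adjusted p = 0.0271). CDKN2B was at 19.2, 25.8 and 28.3 CPM, then 359, 395 and 419, then 234, 249 and 280. It rose by 4.00 ± 0.11 (adjusted p = 2.48e-15) and fell by 0.63 ± 0.10 (adjusted p = 0.000453). For both genes 4OHT_siNT lay above the other groups in every library. Without DMSO_siNT 4-2V, which had the highest CDKN2A level of its group, the values were 1.21 and -0.65 for CDKN2A and 4.05 and -0.64 for CDKN2B, all called. CDKN2B-AS1, the antisense RNA of the locus, had 2 to 9 counts per library and was not tested.

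Cell cycle genes fell alongside EZH2 in senescence. All 25 proliferation genes tested fell in senescence, with a median of -3.89 on the log2 scale and a range from -6.67 (NDC80) to -0.91 (PCNA). The EZH2 value of -1.24 was nearer to the small end of that range. Of all 13136 genes tested 3802 were called lower. NDC80 had 152 to 240 counts per DMSO_siNT library, 0 to 4 per 4OHT_siNT library and 4 to 18 per 4OHT_siSMARCA4 library. Such a gene passed the filter only through DMSO_siNT, so its fall is no separate evidence. MKI67, a marker of dividing cells, averaged 46.5 CPM in DMSO_siNT, 0.863 in 4OHT_siNT and 1.39 in 4OHT_siSMARCA4. After the knockdown 8 of the 25 genes (32%) rose and none fell by edgeR with all libraries (median 0.39). Many genes of the list had few counts in both senescent groups, as NDC80 did. MKI67 had 7 to 16 counts per 4OHT_siNT library and 9 to 28 per 4OHT_siSMARCA4 library, and CDK1 5 to 13 and 10 to 31. The share that rose is therefore not read as a result about the list. Of all genes 10.6% were called, 655 higher and 742 lower, and EZH2 was at -0.08. Without DMSO_siNT 4-2V 9 of the 25 rose and 2 fell, against 24.6% of all genes called. DESeq2 gave 9 and 1, against 14.9%. With the set as a block or with siRNA 4 alone edgeR called none in either direction, against 1.77% and 2.71% of all genes. The part of the lost proliferation in the fall of EZH2 was not tested.

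The genes whose levels followed EZH2 most closely over the 18 libraries, among 11506 genes ranked by Pearson's correlation of log2 CPM, were MATN2 (0.975), ANKRD13A (0.967), FANCI (0.966), AXL (0.965) and SGCE (0.961). The difference between growing and senescent groups is part of these values, and on deviations from the group means they were 0.81, 0.765, 0.706, 0.796 and 0.713. Without DMSO_siNT 4-2V, HHEX and STIL took the places of FANCI and SGCE. For EZH1 the closest were ELMOD3 (0.948), TMEM44 (0.94), PAK4 (0.939), ILK (0.936) and KLHL22 (0.935). These rested on DMSO_siNT 4-2V, since without it the closest was WASF2 (0.822) and none of the 5 remained. For CBX7 they were HOOK2 (0.887), RBM10 (0.88), C6orf47 (0.862), UBXN6 (0.857) and MVP (0.855). Without DMSO_siNT 4-2V the closest was TBKBP1 (0.85), and of these 5 HOOK2 and RBM10 remained. All points share libraries and scaling, so these values are descriptions.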

How the data were processed

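Polyadenylated RNA was made into directional libraries, and per the labels reads were aligned to hg38 with STAR 2.7.8a, with DESeq2 1.36.0 listed in the submitters' processing notes. The authors deposited counts for each gene symbol without normalizing them, in 36 columns, 1 per library and lane. The counting program, annotation and use of strand are not given in the sources used here. Columns were matched to samples by treatment, siRNA and set. The 2 lanes were summed into 18 libraries, of which 17 matched 1 of 29 labelled samples and 1, named for set 1VM, matched no title with its siRNA and was used as a 4OHT_siSMARCA4 replicate without a set label. The other samples were not analysed here.

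Genes were filtered with filterByExpr (minimum count 10), which kept 13136 genes with 99.9% of counts, scaled with TMM and tested in edgeR 4.0.16 (R 4.3.3) by quasi-likelihood, all groups in 1 fit without covariates. P-values were adjusted by Benjamini-Hochberg over all genes tested and called under 0.05. SEs came from the F statistic and intervals are 95%. The common biological coefficient of variation was 23.3%. Lanes differed by a chi-square per degree of freedom of 1.19 to 1.27 and libraries of a group by 2.33 to 315, so none was counted as a duplicate. Exon lengths, coordinates and overlaps came from the GENCODE annotation of GRCh38 and promoters from RefSeq. Steps were tested on simulated data.

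The 9 genes and all lists were chosen with earlier results of these data known. Named genes are the members, SMARCA4, ESR1 and HRAS, the INK4 genes, per comparison the 5 largest called rises and falls among other Polycomb genes, and the 5 genes most like EZH2, EZH1 and CBX7. MKI67, NDC80 and PCNA stand for the proliferation list, and copies and overlapping genes were added. Alternatives covered scaling, DESeq2 1.42.0, filters, the set as a block, V or VM sets, each siRNA, a lane, a stricter threshold and leaving out each library. Those without DMSO_siNT 4-2V together with 4OHT_siSMARCA4 4-3V, VM with the unlabelled library, and the tests between control siRNAs were chosen after seeing the data.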

Additional observations from a re-analysis of the deposited data

Results flagged for a closer look

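In 36 groups of 6 libraries (the 9 members and the 3 ratios between them, in each of the 3 groups) the gap of an extreme library to its nearest neighbour was compared with the range of its group. Members were taken as log2 of CPM plus 0.1, and ratios as log2 ratios. The log scale widens gaps at low values, so a low library is flagged more readily than on plain CPM. A share at 0 counts also depends on the 0.1 added. A share above Dixon's 95% critical value occurs by chance in about 1 of 20 groups, or 1.8 of 36, and 4 exceeded it. Of these, 3 were the same library, DMSO_siNT 4-2V, which was the lowest for EZH1 (share 0.769, at 4.42 CPM), BMI1 (0.836, with 0 counts) and CBX2 (0.702, at 1.31 CPM). The fourth was 4OHT_siSMARCA4 4-3V, the lowest for CBX2 (0.693, at 1.15 CPM).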

How the results depend on the processing

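Counts of called members depended on the processing more than EZH2 did. In 4OHT_siNT over DMSO_siNT, 4 as reported, there were 2 with a filter of at least 1 count and with only these 2 groups in the fit, and 1 with the set as a replicate block, with siRNA 2 alone, with lane 2 alone and at an adjusted p under 0.01. In 4OHT_siSMARCA4 over 4OHT_siNT, 1 as reported, there were 0 with relative log expression scaling, at least 1 count, at least 10 counts in every library, the block, siRNA 2, siRNA 4, lane 2 and the 0.01 threshold, 2 with DESeq2, with only 2 groups and with VM sets plus the unlabelled library, and 3 without both DMSO_siNT 4-2V and 4OHT_siSMARCA4 4-3V. In 4OHT_siSMARCA4 over DMSO_siNT, 2 as reported, there was 1 with the block, V sets, lane 2 and the 0.01 threshold. Leaving out 1 library gave 2 to 5, 0 to 2 and 2 members. The causes were not tested.

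Over all genes the block gave 4356 calls in senescence and 236 for the knockdown, against 6935 and 1397. Correlations of deviations from group means were over 0.1 in 5 of 15 same-set pairs and 26 of 81 others, with medians of 0.0352 and 0.00106. The pairs share libraries, so these values cannot settle whether set names pair the libraries. The knockdown count was 2858 with VM sets, 4064 with the unlabelled library added, 3405 with 2 groups, 370 with siRNA 4, 595 at 0.01 and 3466 without both libraries. V sets gave 2732 for 4OHT_siSMARCA4 over DMSO_siNT. Leaving out 1 library gave 6511 to 7734, 923 to 3269 (3269 without DMSO_siNT 4-2V) and 6347 to 7850. The count of members whose knockdown effect differed between siRNAs was 0 in all fits. Fits of V sets with 4OHT_siNT could not be made, since it had no V library.

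With siRNA 2 alone SUZ12 was at 0.0054 in senescence (adjusted p = 0.981) and EED at 0.42 in 4OHT_siSMARCA4 over DMSO_siNT (adjusted p = 0.0391), opposite in sign to the reported values. Values of CBX2, BMI1 and CBX8 rest on few counts, which limits their precision.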

Other observations

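COMMD3, the neighbour of BMI1 on chromosome 10, was at 83.9 CPM in DMSO_siNT 4-2V, at 12.3 to 21.0 CPM in the other DMSO_siNT libraries and at 9.72 to 26.2 CPM over the senescent libraries. BMI1 had 0 counts in DMSO_siNT 4-2V and at least 7 counts in every other library.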
